A study of Mus musculus with 59 samples.

Results

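Greb1, Cited1, Stc2, Nrip1, Tnfsf11 and Ccnd1 are 6 genes known as targets of estrogen or progesterone in mammary epithelium, and they were followed through 59 mouse mammary tumors. They were found by symbol, 6 of 6, among 55421 genes of a table of gene reads and among 33282 genes of a table of intron reads. All tumors grew in B6.FVB-Tg(MMTV-PyVT)634Mul/LellJ mice, genotype PyMT (+/-), so every group, vehicle included, carries the polyoma middle T transgene. The transgene is driven by the promoter of the mouse mammary tumor virus, which is active in mammary epithelium and is itself responsive to steroid hormones. There were 19 vehicle tumors, 20 from mice given methylparaben and 20 from mice given propylparaben, both parabens being preservatives, esters of para-hydroxybenzoic acid with a methyl or a propyl chain. Doses, length of exposure and ages are not given in the labels. RNA was total RNA of flash-frozen, pulverized tumor pieces, which hold other cells beside tumor epithelium. The labels do not state that each library is a separate animal, so the p-values below measure the scatter among these samples, which may be in part technical. Luminal markers were present in every library, with the adhesion gene Epcam between 235 and 582 and Cdh1, the gene of E-cadherin, between 462 and 959 in scaled CPM, the authors' normalized unit and that of all levels below. Between 1166502 and 2032789 reads per library lay on genes.

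Estrogen and progesterone act through nuclear receptors, the products of Esr1 and Pgr, which bind DNA and recruit coregulators to switch target genes on or off. Pgr is itself a classic estrogen target, so both signals are layered in the mammary gland. Hormone-sensing luminal cells pass the signal to their neighbors by secreted factors, among them the progesterone-induced cytokine RANKL, the product of Tnfsf11. Greb1 encodes a chromatin-bound cofactor of the estrogen receptor and is among its best known targets, and Cited1 encodes a transcriptional coactivator that can bind the receptor. Stc2 encodes the secreted glycoprotein stanniocalcin 2. Nrip1 encodes RIP140, a corepressor that estrogen induces and that in turn dampens the receptor. Ccnd1 encodes cyclin D1, which with its kinase partners moves cells out of the G1 phase and which many growth signals besides hormones induce.

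All 6 genes lie on the minus strand of GRCm38. Stc2 (ENSMUSG00000020303) spans chr11:31357307-31370074, Cited1 (ENSMUSG00000051159) chrX:102247381-102252181 and Greb1 (ENSMUSG00000036523) chr12:16670615-16800886. Nrip1 (ENSMUSG00000048490) spans chr16:76287400-76373827, Tnfsf11 (ENSMUSG00000022015) chr14:78277445-78308043 and Ccnd1 (ENSMUSG00000070348) chr7:144929931-144939925. Exons of Ccnd1 share 1100 bases with LTO1 on the other strand, a gene with a mean level of 13.1, and exons of Greb1 share 736 bases with the antisense gene Gm48140, which is at 0. The strand setting of the read counts is not given in the sources used here, so reads of such pairs may not be fully parted. The promoters of Stc2, Cited1 and Nrip1, the members with an unadjusted p under 0.05 in the comparisons with vehicle, are shown with that of Greb1, the receptor cofactor. Cited1, Nrip1 and Greb1 have other annotated starts, whose windows are not printed. Each run holds the 250 bases before the annotated start and the first 30 after it, 5′ to 3′ on the minus strand, from RefSeq (GRCm38.p6), at chr11:31370032-31370311, chrX:102252152-102252431, chr16:76373798-76374077 and chr12:16800857-16801136 in this order. Capitals mark 1 arm of the estrogen response element, GGTCA, or TGACC where it reads on the other strand.
Stc2: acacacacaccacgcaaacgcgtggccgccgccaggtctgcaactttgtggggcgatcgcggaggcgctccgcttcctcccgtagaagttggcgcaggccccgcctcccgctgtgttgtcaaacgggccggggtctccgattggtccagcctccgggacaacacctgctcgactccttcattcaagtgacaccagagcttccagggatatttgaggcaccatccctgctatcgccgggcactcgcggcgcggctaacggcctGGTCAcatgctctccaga
Cited1: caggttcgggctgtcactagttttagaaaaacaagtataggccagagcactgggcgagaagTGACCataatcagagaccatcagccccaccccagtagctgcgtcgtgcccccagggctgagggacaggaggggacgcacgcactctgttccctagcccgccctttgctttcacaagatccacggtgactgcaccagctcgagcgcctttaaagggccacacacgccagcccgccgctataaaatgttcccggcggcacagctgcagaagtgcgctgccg
Nrip1: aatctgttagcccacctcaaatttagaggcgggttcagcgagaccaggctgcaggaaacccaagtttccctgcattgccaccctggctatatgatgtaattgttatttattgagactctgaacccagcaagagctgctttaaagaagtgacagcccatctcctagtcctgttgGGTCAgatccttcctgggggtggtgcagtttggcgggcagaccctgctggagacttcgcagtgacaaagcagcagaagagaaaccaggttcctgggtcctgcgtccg
Greb1: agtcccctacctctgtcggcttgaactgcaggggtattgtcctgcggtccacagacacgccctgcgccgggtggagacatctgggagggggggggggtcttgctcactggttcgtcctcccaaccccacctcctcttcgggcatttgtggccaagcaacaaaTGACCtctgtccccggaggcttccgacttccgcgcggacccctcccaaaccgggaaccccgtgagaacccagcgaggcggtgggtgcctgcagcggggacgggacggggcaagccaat
In Stc2 the first base of that arm lies 13 bases after the start, and in Cited1, Nrip1 and Greb1 it lies 189, 77 and 88 bases before it. Promoters of 5 members were at hand, 9 windows of 300 bases counting alternative starts, and 6 of the 9 held such an arm, against 40.5 % of 32851 windows of that length over all genes. Those without an arm were a further window of Cited1, the further window of Nrip1 and that of Tnfsf11, none of them printed. The full element GGTCANNNTGACC, read on both strands and holding the arm within it, was in 0 of the 9 and in 0.0700 % of all windows. The arm of the progesterone response element, TGTTCT or AGAACA, which the glucocorticoid receptor shares, was in 0 of the 9 and in 19.0 % of all. A match is a description of these letters and says nothing of binding, and no match says only that the letters are absent from this window.

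The first comparison, methylparaben against vehicle, bears on whether these hormone targets differed after the methyl ester. Levels were compared as log2(value + 1) with limma over genes with a mean of at least 1, and a gene passed at a Benjamini-Hochberg adjusted p under 0.05 over all genes tested. Of the members, 5 were tested and 0 passed, against a background of 1.32 % of 14487 genes that passed. At an unadjusted p under 0.05 the members were 3 of 5 (Cited1, Stc2 and Nrip1, all above vehicle), and all genes 22.1 %. On recovered reads edgeR called 0 members and 4 % of the genes, and DESeq2 called 1 member, Nrip1, and 4.42 % of the genes. The median difference of the 5 was 0.28 on the log2 scale, and that of all genes tested was 0.01. In bulk tissue, fewer cells of a type and less RNA per cell cannot be told apart.

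Cited1 lay between 0.328 and 65.8 in vehicle tumors (median 11.04), between 5.32 and 66.4 in methylparaben tumors (median 21.2) and between 6.65 and 67.7 in propylparaben tumors (median 22.1). The groups overlapped over most of their range, and what set vehicle apart was its lower end, where 4 vehicle tumors lay below every methylparaben tumor and 6 below every propylparaben tumor. Of the treated tumors, 19 of 20 with methylparaben and 18 of 20 with propylparaben lay above the vehicle median. The log2 difference was 1.03 ± 0.33 (SE) for methylparaben (limma adjusted p = 0.0714) and 1.18 ± 0.33 for propylparaben (limma adjusted p = 0.0774), and neither passed.

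Stc2 had the same shape. Its vehicle values ran from 0.822 to 78.3 (median 11.7), with both the lowest and the highest tumor of the study in that group. Methylparaben tumors ran from 8.25 to 49.7 (median 24.2) and propylparaben tumors from 4.61 to 54.8 (median 23.9). The lowest methylparaben tumor lay above 7 vehicle tumors, and 19 of 20 methylparaben and 18 of 20 propylparaben tumors lay above the vehicle median. The log2 difference was 0.89 ± 0.29 (limma adjusted p = 0.0754) for methylparaben and 0.83 ± 0.29 (limma adjusted p = 0.124) for propylparaben.

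Nrip1 was far less variable. It ran from 104 to 190 in vehicle (median 141), from 124 to 303 in methylparaben (median 158) and from 124 to 245 in propylparaben tumors (median 155). Vehicle held 7 tumors below every tumor of either paraben group, and 18 of 20 methylparaben and 15 of 20 propylparaben tumors lay above its median. The log2 difference was 0.28 ± 0.09 (limma adjusted p = 0.0650) and 0.22 ± 0.09 (limma adjusted p = 0.176). DESeq2 on recovered reads gave 0.30 with an adjusted p of 0.0379 for methylparaben, within a range of 0.0332 to 0.922 over the 74 alternatives, and edgeR gave 0.0510.

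Greb1, a cofactor of the estrogen receptor as well as its target, had similar ranges in the 3 groups. It ran from 1.93 to 28.8 in vehicle (median 10.7), from 3.98 to 22.2 in methylparaben (median 9.25) and from 2.05 to 20.9 in propylparaben tumors (median 10.001). In each paraben group 8 of 20 tumors lay above the vehicle median. The log2 difference was 0.06 (95 % interval -0.39 to 0.52, limma adjusted p = 0.908) for methylparaben and -0.18 (-0.64 to 0.28, limma adjusted p = 0.706) for propylparaben.

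Ccnd1 had values from 384 to 933 in vehicle (median 512), 338 to 849 in methylparaben (median 505) and 361 to 658 in propylparaben tumors (median 525). The medians of the 3 groups lay close together, while 5 vehicle tumors lay above every propylparaben tumor. The log2 difference was -0.14 in both comparisons, with 95 % intervals of -0.36 to 0.08 (limma adjusted p = 0.465 for methylparaben and 0.515 for propylparaben).

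Tnfsf11 was almost absent. It had 36 reads over all 59 libraries, 42 of them without a read, and its mean of 0.280 kept it out of the test. Propylparaben replicate 7 alone held 13 of the reads, at a level of 6.33, and the highest vehicle and methylparaben tumors were at 1.39 and 0.865. A difference in the gene of RANKL was therefore not detectable at this depth.

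**Figure D1:**
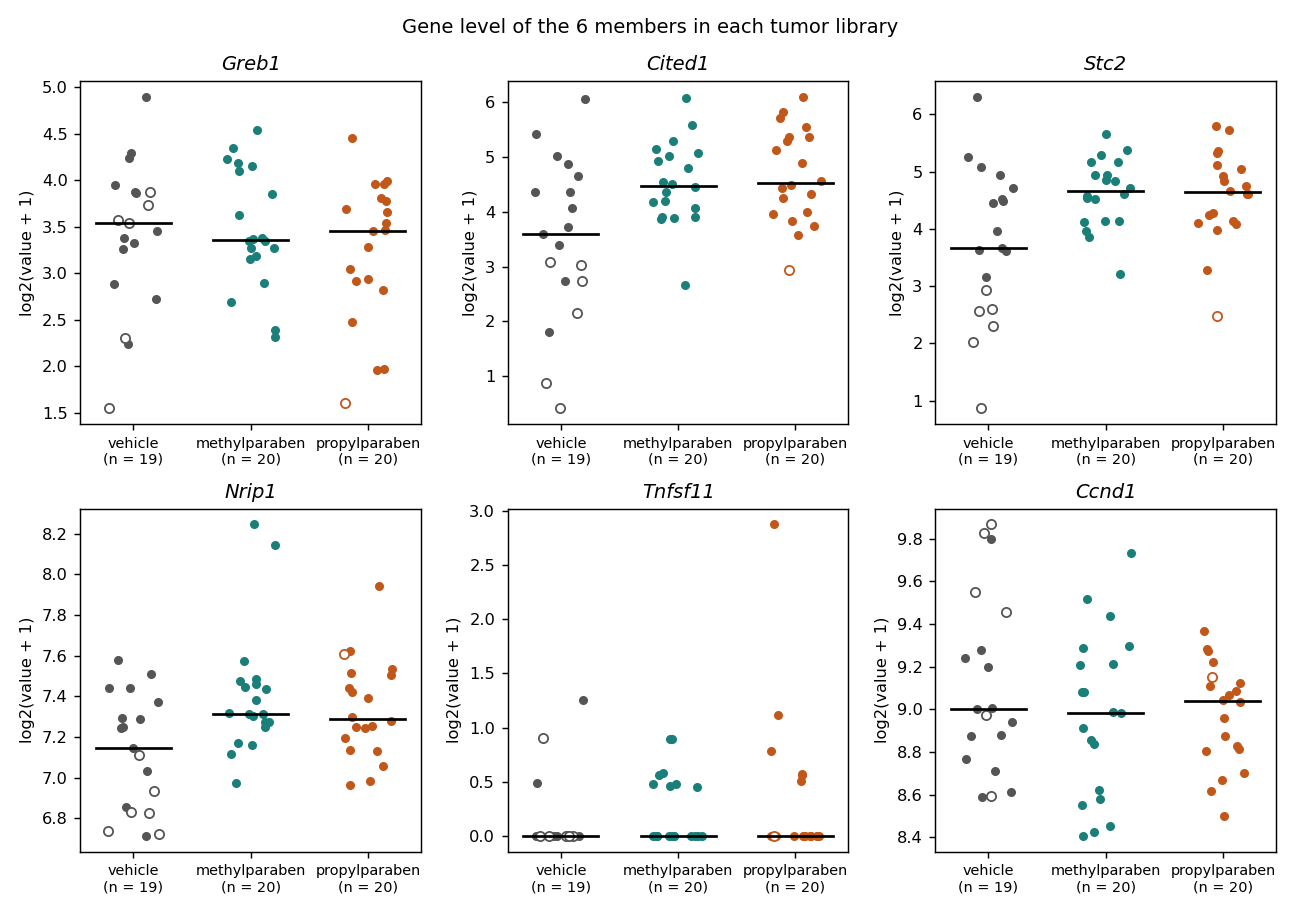
Gene level as log2(value + 1) of each of the 6 members in each library, by group, with the group median as a line and open circles for the 7 libraries with the lowest scores on component 1 of all genes. The 7 open circles are the 7 lowest points of Stc2 and lie among the 10 lowest of Cited1, while in Greb1 they are scattered. In Ccnd1 they reach from rank 8 to the highest tumor, with a median level of 702 against 505 in the other 52 libraries.

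The second comparison sets propylparaben against the same vehicle tumors, so the differences from vehicle given above are not independent of each other. Again 5 members were tested and limma called 0, against 0.0276 % of 14487 genes. At an unadjusted p under 0.05 the same 3 members, Cited1, Stc2 and Nrip1, lay above vehicle, and 18.4 % of all genes passed that limit. Neither edgeR (0.221 % of genes) nor DESeq2 (1.59 %) called a member there. The median difference of the members was 0.22 on the log2 scale and that of all genes was -0.0005.

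Between the esters, which differ in the length of the alkyl chain of the ester, limma called 0 of 5 members and 0 % of 14487 genes. At an unadjusted p under 0.05 there were 0 members and 2.15 % of all genes. Neither edgeR (0.145 % of genes) nor DESeq2 (0 %, and 2.66 % unadjusted) called a member. Propylparaben minus methylparaben was 0.15 for Cited1 (95 % interval -0.51 to 0.80), -0.06 for Stc2 (-0.64 to 0.51) and -0.07 for Nrip1 (-0.24 to 0.11) on the log2 scale. For Greb1 it was -0.24 (-0.69 to 0.21) and for Ccnd1 0.00 (-0.21 to 0.22). Every limma adjusted p was 0.9999. The intervals of Cited1 and Stc2 still allow differences of over 0.5 either way. Whether the doses of the esters matched is not in the labels.

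Intron reads, which come largely from unspliced transcripts, gave a second readout of 4 members. Nrip1 introns ran from 200 to 426 in vehicle (median 288), from 234 to 651 in methylparaben (median 337) and from 246 to 556 in propylparaben tumors (median 338). Stc2 introns were low, with medians of 1.82, 3.999 and 4.45 in the same order, and 17 of 20 tumors of each paraben group lay above the vehicle median for Stc2 and for Nrip1. The log2 differences in introns were 0.28 ± 0.10 for Nrip1 in both comparisons, 0.70 ± 0.39 and 0.55 ± 0.39 for Stc2, and 0.31 ± 0.30 and -0.24 ± 0.30 for Greb1. Tnfsf11 introns held 34 reads in all, with 38 libraries without one, and differed by 0.60 ± 0.32 and 0.57 ± 0.32, values that rest on 1 to 3 reads in the tumors that had any. Introns of Cited1 and Ccnd1 were below the filter.

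For introns limma called 0 of 4 members and 0 % of 14281 genes in each of the 3 comparisons. At an unadjusted p under 0.05 there were 1 member (Nrip1) and 13.3 % of genes for methylparaben, 1 member (Nrip1) and 12.1 % for propylparaben, and 0 members and 3.47 % between the esters. Gene level minus intron level could be tested for Greb1 and Nrip1, and limma called 0 of 2 members and 0 % of 6667 genes in each of the 3 comparisons (unadjusted, 0 members in each and 6.27 %, 7.27 % and 3.52 % of genes). For Nrip1 that difference was 0.00 (95 % interval -0.10 to 0.11) in methylparaben and -0.06 (-0.16 to 0.04) in propylparaben against vehicle. Count tests were run on gene reads only. Across tumors, with group means subtracted, gene and intron levels of Nrip1 followed each other closely (r = 0.919, rho = 0.888, n = 59), those of Stc2 less so (r = 0.703, rho = 0.687) and those of Greb1 least of the 3 (r = 0.442, rho = 0.447). Both readouts come from the same libraries, so these values are descriptions.

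The lower ends of Cited1 and Stc2 were made up largely of the same 7 tumors. Vehicle replicates 7, 8, 10, 13, 14 and 19 and propylparaben replicate 1 have the 7 lowest scores on the first principal component of all genes, which holds 19.1 % of the variance and to which the members themselves contribute. They were the 7 lowest of 59 tumors for Stc2, at 0.822 to 6.60, and all 7 were among the 10 lowest for Cited1, at 0.328 to 7.43, and for Esr1. For Nrip1 5 of the 7 were among the 10 lowest, but propylparaben replicate 1 stood at rank 55. For Greb1 3 were among the 10 lowest and the others ranked between 34 and 45. For Ccnd1 vehicle replicates 7 and 10 were the highest tumors of the study, at 933 and 907. Vehicle replicates 19 and 14 ranked 55 and 53, also above every propylparaben tumor, and vehicle replicate 8 ranked 8. The median of Ccnd1 was 702 in the 7 libraries and 505 in the other 52.

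Without these 7 libraries the vehicle medians were 19.5 for Cited1, 21.4 for Stc2 and 155 for Nrip1. The methylparaben difference was then 0.36 for Cited1, 0.19 for Stc2, 0.16 for Nrip1, -0.02 for Ccnd1 and -0.09 for Greb1, and the propylparaben difference was 0.60, 0.23, 0.08, -0.03 and -0.24. Limma then called 0 members and 0 genes in either comparison, with 0 and 1 members and 5.77 % and 5.82 % of 14527 genes at an unadjusted p under 0.05. The marker levels of the 7 libraries are descriptions that are not independent of how these were picked. The marker genes named next enter the first principal component too, and its sign was set so that low scores go with a high mitosis score. The cut at 7 fell at no wide gap, between vehicle replicate 13 at -36.3 and vehicle replicate 1 at -31.8. The summed level of the 20 mitosis markers was 1322 to 2216 in them (median 1803) and 465 to 1611 in the other 52 (median 891), and each of the markers was detected. The 10 fibroblast markers summed to 373 to 1288 against 837 to 5428, the 9 macrophage markers to 115 to 299 against 242 to 724, and the 13 adipocyte markers to 94.9 to 211 against 135 to 12753. The 9 luminal markers lay within the range of the other 52, at 1377 to 2216 against 1294 to 2479. So did the endothelial markers (118 to 157 against 97.4 to 359) and the muscle, T cell and B cell markers. The alveolar and basal markers overlapped in part. With the mitosis score (mean log2 level of its markers) in the fit, the methylparaben difference was 0.39 for Cited1, 0.30 for Stc2, 0.13 for Nrip1 and -0.03 for Greb1. With 6 tissue scores in the fit it was 0.63 for Cited1 and 0.63 for Stc2. By group, the mitosis markers summed to 561 to 2216 in vehicle, 465 to 1611 in methylparaben and 521 to 2015 in propylparaben tumors. In either comparison 20 of 20 lay below vehicle, of which 2 and 0 passed (limma, against 1.32 % and 0.0276 % of all genes). The part of these markers in the differences was not tested.

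**Figure D2:**
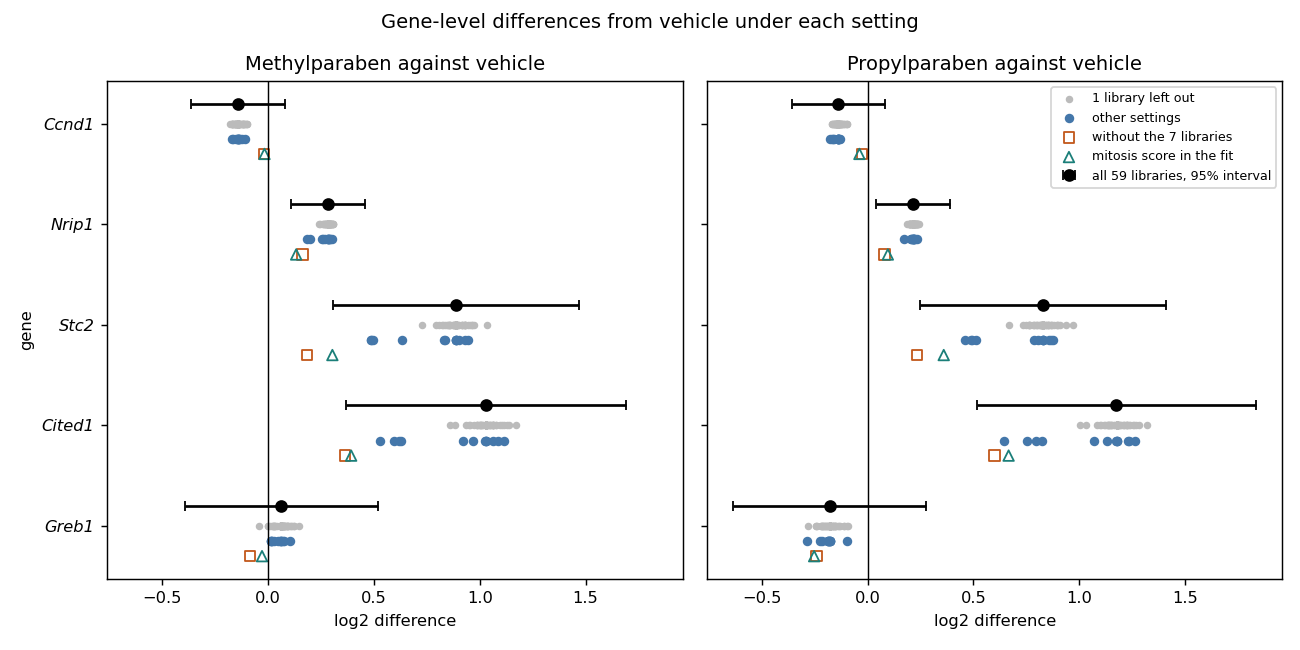
Log2 difference from vehicle of the 5 tested members for each paraben, as the value over all 59 libraries with its 95 % interval (black), with 1 library left out (grey), under the other settings (blue), without the 7 libraries (square) and with the mitosis score in the fit (triangle). Squares and triangles lie nearest to 0 for Cited1, Stc2 and Nrip1, except that for Cited1 with propylparaben a pseudocount of 10 gave 0.64, below the triangle at 0.67, and Cited1 stays above 0 in every setting drawn.

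Leaving out single libraries moved the nearest calls. The share of all genes that passed in each of these fits is not given here. The passes that follow can therefore not be called particular to the members. In the methylparaben comparison Cited1 passed without vehicle replicates 5, 9, 11, 15 or 17 or without methylparaben replicate 20 (limma adjusted p from 0.0299 to 0.0480). Stc2 passed without vehicle replicates 5, 9 or 11 (0.0279 to 0.0474), and Nrip1 without vehicle replicates 5, 6, 11 or 12 or methylparaben replicate 4 (0.0332 to 0.0451). In the propylparaben comparison Cited1 passed without vehicle replicates 5, 11, 15 or 17 or propylparaben replicate 1 (0.0353 to 0.0490). Over all 74 alternatives the adjusted p ran from 0.0299 to 0.922 and from 0.0353 to 0.845 for Cited1 in these comparisons, and from 0.0279 to 0.926 for Stc2 with methylparaben.

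The spread between tumors was compared as the mean absolute deviation from the group median of log2(value + 1). For Stc2 it was 1.05 in vehicle and 0.463 in methylparaben tumors (two-sided permutation test, adjusted p = 0.0445 over 18 comparisons), the one of the 18 that passed. Cited1 had 1.17 and 0.575 (adjusted p = 0.0934). In propylparaben tumors the spread was 0.588 for Stc2 and 0.712 for Cited1 (permutation test, adjusted p = 0.185 for both against vehicle). Without the 7 libraries the spread of Stc2 in vehicle was 0.639 and the difference did not pass (adjusted p = 0.930). With a pseudocount of 10 it did not pass either (permutation test, adjusted p = 0.369). The vehicle values of Stc2 went down to 2 reads, and spread was compared for the members only.

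Within the groups, Stc2 and Cited1 followed the receptor genes from tumor to tumor. After subtracting group means, 6 of 12 relations of the members with Esr1 and Pgr passed a two-sided permutation test within groups (100000 permutations, adjusted over the 12), all of them positive. The share of all genes that would pass was not computed. The count of 6 can therefore not be called particular to the members. Over genes with a mean of at least 10 outside 1 Mb of each receptor gene, the 95th percentile of rho was 0.496 with Esr1 and 0.3945 with Pgr. Of the relations that passed, Nrip1 with Esr1 (rho = 0.320) and Greb1 with Pgr (rho = 0.141) lay below these percentiles. Stc2 followed Pgr most closely (r = 0.851, rho = 0.889, n = 59), with r = 0.857 in vehicle, 0.791 in methylparaben and 0.880 in propylparaben tumors. It was 0.843 without the 7 libraries and 0.850 without the 2 tumors farthest from the median of Pgr. The p was 1e-05, the smallest these permutations can give, and the adjusted p 3e-05, as they were for Cited1 with Esr1, Stc2 with Esr1 and Cited1 with Pgr.

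Cited1 followed Esr1 (r = 0.766, rho = 0.662), with 0.875, 0.736 and 0.547 in vehicle, methylparaben and propylparaben tumors and 0.712 without the 2 farthest. It followed Pgr at r = 0.744 (rho = 0.674), with 0.865, 0.384 and 0.687 within the groups and 0.652 without the 2 farthest. Stc2 followed Esr1 at r = 0.757 (rho = 0.674), with 0.919 and 0.691 in vehicle and propylparaben but 0.328 in methylparaben tumors, and 0.719 without the 2 farthest. Without the 7 libraries these 3 values were 0.608, 0.573 and 0.546. In methylparaben tumors taken alone 2 of the 12 relations passed, Stc2 with Pgr and Cited1 with Esr1. Whether r differs between the groups was not tested.

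The other members were weakly related to the receptor genes or not detectably so. Nrip1 passed with Esr1 (r = 0.363, rho = 0.320, permutation p = 0.00589, adjusted p = 0.0141), at 0.515, 0.380 and 0.137 in vehicle, methylparaben and propylparaben and 0.340 without the 2 farthest, and did not without the 7 libraries (r = 0.285, adjusted p = 0.114). Greb1 passed with Pgr (r = 0.346, permutation p = 0.0114, adjusted p = 0.0229), but rho was 0.141. Its r was lower without the 2 farthest (0.213) and without the 7 libraries (0.186). Within the groups r was 0.494, 0.337 and 0.137, and the methylparaben group holds none of the 7 libraries. Nrip1 with Pgr did not pass (r = 0.284, rho = 0.369, adjusted p = 0.0572 by permutation). It stood at 0.592, -0.0347 and 0.112 in vehicle, methylparaben and propylparaben, and at 0.155 without the 7 libraries. Greb1 with Esr1 stood at r = 0.223 (rho = 0.115), and Ccnd1 and Tnfsf11 stood between -0.08 and 0.03 with either receptor gene. Among the 15 pairs of members 1 passed, Cited1 with Stc2 (r = 0.8002, rho = 0.795, permutation p = 1e-05, adjusted p = 0.00015). That pair stood at 0.881, 0.509 and 0.775 in vehicle, methylparaben and propylparaben tumors, 0.740 without the 2 farthest and 0.707 without the 7 libraries. The share of all gene pairs that would pass was not computed.

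**Figure D3:**
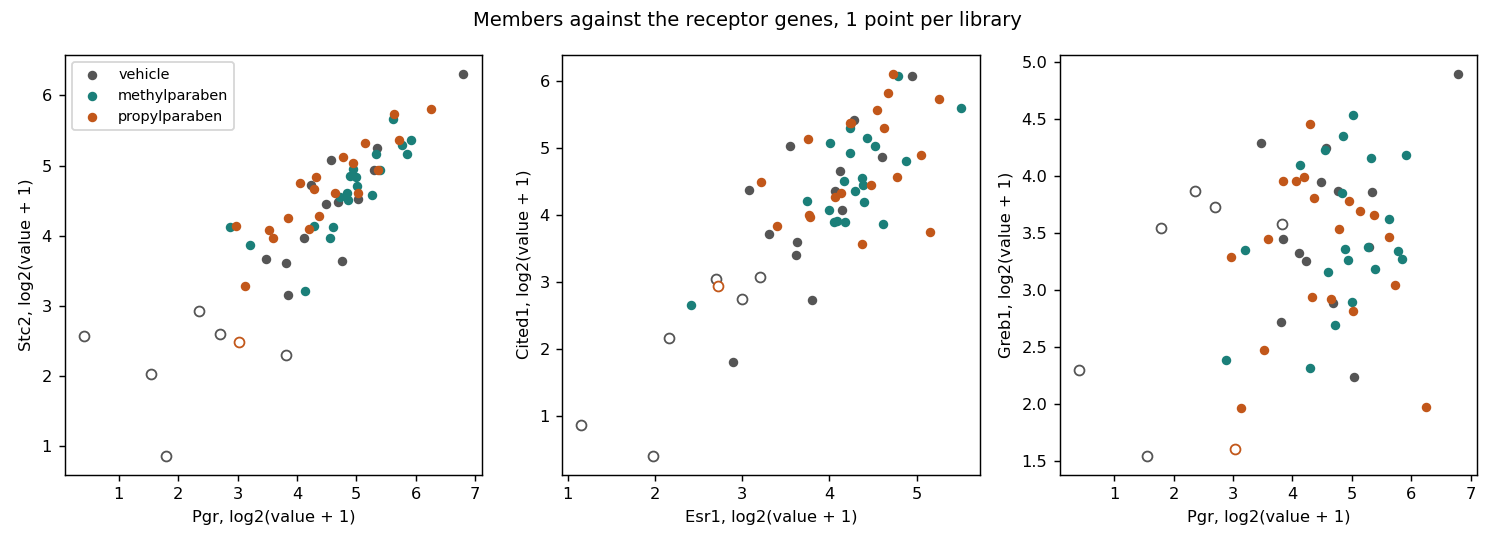
Level of Stc2 against Pgr, Cited1 against Esr1 and Greb1 against Pgr as log2(value + 1), 1 point per library, colored by group, with open circles for the 7 libraries. Stc2 rises with Pgr in all 3 groups (r from 0.791 to 0.880), while the points of Greb1 spread over the whole range of Pgr.

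Of 66 relations between members and marker scores 21 passed (permutation test, adjusted over the 66), 16 positive and 5 negative. The share of all genes that would pass with these scores was not computed. The counts can therefore not be called particular to the members. With the mitosis score 4 of the 6 members passed, 3 of them negatively. Against it Cited1 stood at r = -0.596 (rho = -0.581), Stc2 at -0.622 (rho = -0.544) and Nrip1 at -0.544 (rho = -0.566), each with a permutation p of 1e-05 and an adjusted p of 0.00022. Ccnd1 stood at 0.352 (rho = 0.347, adjusted p = 0.0288), and Greb1 at -0.125 (adjusted p = 0.577) and Tnfsf11 at 0.0316 (adjusted p = 0.906) did not pass. Without the 2 tumors farthest from the median score the values of Cited1, Stc2, Nrip1 and Ccnd1 were -0.524, -0.531, -0.640 and 0.355, and without the 7 libraries -0.444, -0.337, -0.542 and 0.245. Within the groups Nrip1 had -0.692, -0.656 and -0.298 in vehicle, methylparaben and propylparaben, and Stc2 had -0.810, -0.124 and -0.620. Cited1 had -0.692, -0.386 and -0.605, and Ccnd1 had 0.174, 0.484 and 0.569.

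Among the epithelial scores, Stc2 rose with the luminal score (r = 0.490, rho = 0.599, adjusted p = 0.00619 by permutation), with 0.478, 0.246 and 0.682 in vehicle, methylparaben and propylparaben, 0.531 without the 2 farthest tumors and 0.591 without the 7 libraries. Cited1 (r = 0.320, rho = 0.471, adjusted p = 0.104 by permutation) and Nrip1 (r = 0.286, rho = 0.330, adjusted p = 0.0898) did not pass with it, and whether r differs between members was not tested. Cited1 and Ccnd1 were lower where the alveolar score, built on milk protein genes, was higher (r = -0.374 and -0.342, rho = -0.358 and -0.334, adjusted p = 0.0126 and 0.0248 by permutation). Within vehicle, methylparaben and propylparaben these were -0.239, -0.605 and -0.480 for Cited1 and -0.457, -0.484 and -0.140 for Ccnd1. Without the 2 farthest tumors they were -0.279 and -0.364, and without the 7 libraries -0.455 and -0.409. Cited1, Stc2 and Greb1 passed with the basal score (r = 0.421, 0.440 and 0.347, rho = 0.398, 0.420 and 0.166, adjusted p = 0.0066, 0.00619 and 0.0322 by permutation). Without the 7 libraries these r were 0.284, 0.263 and 0.203, and without the 2 farthest tumors 0.398, 0.347 and 0.218.

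Cited1 and Stc2 also passed with scores of stroma and immune cells. With the fibroblast score r was 0.441 for Cited1 and 0.475 for Stc2 (rho = 0.344 and 0.336, adjusted p = 0.00792 and 0.00619 by permutation), and 0.101 and 0.0746 without the 7 libraries. In methylparaben tumors alone the signs were opposite, at -0.0717 and -0.389. With the macrophage score r was 0.360 and 0.466 (rho = 0.256 and 0.317, adjusted p = 0.0445 and 0.00719 by permutation), and -0.0416 and -0.0353 without the 7 libraries. Both pairs of relations thus rest on those libraries. With the T cell score, whose 9 markers summed to 4.41 to 41.3, Stc2 stood at r = 0.451 (rho = 0.409, adjusted p = 0.00413 by permutation), with 0.616, 0.430 and 0.352 in vehicle, methylparaben and propylparaben, 0.464 without the 2 farthest tumors and 0.292 without the 7 libraries (adjusted p = 0.192). Cited1 stood at 0.346 with that score (rho = 0.313, adjusted p = 0.0266 by permutation) and at 0.147 without the 7 libraries. With the B cell score, in which 4 of 7 markers had a median of 0, Cited1 stood at 0.270 (rho = 0.407, adjusted p = 0.0322 by permutation) and at 0.298 without the 7 libraries (adjusted p = 0.103). With the adipocyte score Cited1 and Stc2 stood at 0.344 and 0.281 (rho = 0.337 and 0.273, adjusted p = 0.0126 and 0.0419 by permutation), and at 0.170 and 0.0232 without the 7 libraries. Nrip1 passed with the adipocyte score (r = 0.449, rho = 0.391, adjusted p = 0.00619 by permutation), at 0.604, 0.465 and 0.346 in vehicle, methylparaben and propylparaben, and at 0.440 without the 7 libraries and 0.292 without the 2 farthest tumors. It also passed with the muscle score (r = 0.343, rho = 0.282, adjusted p = 0.0322 by permutation), at 0.638, 0.462 and -0.103 within the groups, 0.265 without the 2 farthest tumors and 0.305 without the 7 libraries. In methylparaben tumors taken alone, and in propylparaben tumors taken alone, 0 of the 66 passed.

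**Figure D4:**
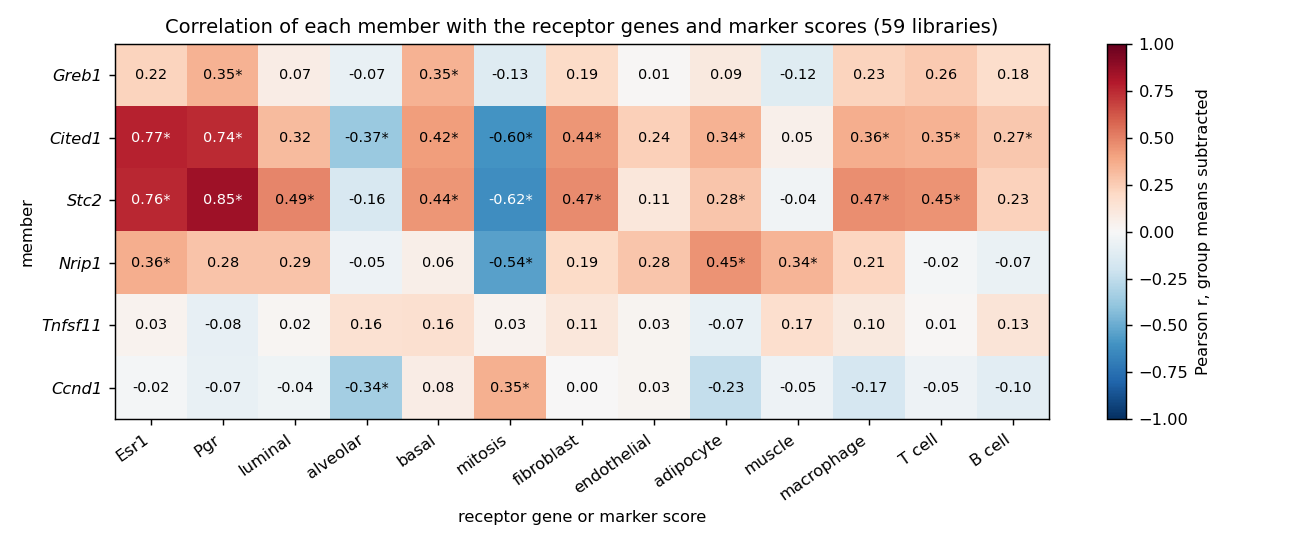
Pearson r over 59 libraries, with group means subtracted, of each member (rows) with Esr1, Pgr and 11 marker scores (columns); a star marks an adjusted permutation p under 0.05. Stc2 and Cited1 are red with both receptor genes (0.74 to 0.85) and blue with the mitosis score, and Tnfsf11 has no star.

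The genes whose levels ranked tumors most like each member were sought by Spearman rho of group-centered levels among 9143 genes with a mean of at least 10, over 59 tumors. For Stc2 they were Gipc2 (rho = 0.917), the prolactin receptor gene Prlr (0.891), Pgr (0.889), the ion transporter gene Slc12a2 (0.846) and Tmem56 (0.845). For Cited1 they were Gipc2 (0.809), Stc2 (0.795), Tmem158 (0.776), the fibrinogen gene Fgb (0.771) and Foxa1 (0.767), the gene of a factor that opens chromatin for nuclear receptors. Esr1 was number 33 of this order for Stc2 and number 24 for Cited1. Without the 7 libraries rho was 0.870 for Stc2 with Gipc2 and 0.789 for Cited1 with Foxa1.

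The other members had looser company. For Nrip1 the genes were Zmiz1 (0.649), Tmcc1 (0.636), Mkln1 (0.631), Camk2d (0.630) and Slc5a3 (0.619). For Greb1 they were the glutamate transporter gene Slc1a2 (0.620), Ecrg4 (0.611), the Wnt antagonist gene Frzb (0.573), Dclk1 (0.532) and Stk32a (0.529), and Pgr was number 1226 of the order (rho = 0.141). For Ccnd1 they were Zmat3 (0.711), Edc3 (0.613), the chloride channel gene Ano1 (0.610), the carbonic anhydrase gene Car12 (0.609) and Cdca7l (0.608). Ano1 starts 187 kb from Ccnd1 on the same chromosome. Of the 4 genes with a mean of at least 10 that start within 1 Mb of Ccnd1 it was the only one above the 95th percentile of other genes (0.342), since LTO1 stood at 0.159, Cttn at 0.123 and Ppfia1 at 0.115. Around Cited1, Stc2, Greb1 and Nrip1, 0 of 9, 11, 9 and 4 such neighbors lay above that percentile. These are descriptions over libraries that share their depth and tissue makeup.

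Other genes of the hormone pathways were read from lists. Of all genes tested, 51.2 % lay above vehicle with methylparaben and 49.8 % with propylparaben. An unadjusted p under 0.05 was reached by 22.1 % and 18.4 %, and 1.32 % and 0.0276 % passed (limma). The counts of the lists stand against these shares. Of 8 genes of receptors and their pioneer factors 6 were tested, and all 6 lay above vehicle in both comparisons (median log2 difference 0.75 and 0.68). At an unadjusted p under 0.05 there were 6 and 5 of them (limma). With propylparaben 0 passed, and with methylparaben 2 rose. These were Esr1 (0.88 ± 0.23, limma adjusted p = 0.0400) and Gata3, a luminal transcription factor (0.56 ± 0.14, limma adjusted p = 0.0355). Esr1 ran from 1.23 to 29.99 in vehicle (median 10.7), from 4.35 to 44.5 in methylparaben (median 18.3) and from 5.63 to 37.3 in propylparaben tumors (median 18.9). Pgr did not pass, with 1.01 ± 0.34 for methylparaben (limma adjusted p = 0.0865) and 0.60 ± 0.34 for propylparaben (0.345). Pgr ran from 0.328 to 110 in vehicle (median 16.3), from 6.36 to 59.4 in methylparaben (median 29.2) and from 6.82 to 75.4 in propylparaben tumors (median 19.3).

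Of 21 other estrogen targets tested 1 rose in each comparison with vehicle, Irs1, the adaptor of the insulin and IGF1 receptors (0.72 ± 0.13, limma adjusted p = 0.00806, and 0.64 ± 0.13, limma adjusted p = 0.0252). In the same list 15 and 16 of 21 lay above vehicle (51.2 % and 49.8 % of all genes), with medians of 0.10 and 0.15. At an unadjusted p under 0.05 there were 6 and 5 of the 21 (limma). Of 8 other progesterone targets 0 passed and 3 had an unadjusted p under 0.05 in either comparison (limma). Among these the ligand genes Wnt5a and Rspo1 stood at 0.48 (limma adjusted p = 0.154) and -0.72 (0.0556) with methylparaben, the alveolar factor gene Elf5 at 0.25 (0.0936) and Cyp26a1, which encodes a retinoic acid hydroxylase, at -0.21 (0.662). Of 12 coregulators 0 passed and 4 had an unadjusted p under 0.05 with methylparaben (limma). The coactivator genes Ncoa1 (0.16) and Ncoa2 (0.22) lay above vehicle, and Phb2 (-0.17), a repressor of the estrogen receptor, and the methyltransferase gene Carm1 (-0.12, unadjusted p = 0.208) lay below, with limma adjusted p from 0.120 to 0.466.

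The partners of Tnfsf11 and Ccnd1 gave 1 call. Of 12 genes of the RANK pathway 0 passed with either paraben, with 0 and 1 at an unadjusted p under 0.05 (limma), and medians of -0.0032 and 0.06. With methylparaben Nfkb1 (0.14) and Rela (0.10), subunits of NF-kappaB, lay above vehicle, and Id2 (-0.13) and the kinase gene Chuk (-0.19) below. Of 14 partners and inhibitors of cyclin D1 1 fell with methylparaben and 0 passed with propylparaben, with 4 and 5 at an unadjusted p under 0.05 (limma). Cdk4, the kinase that cyclin D1 activates, fell by 0.40 ± 0.08 on the log2 scale with methylparaben (limma adjusted p = 0.0239) and stood at -0.35 ± 0.08 with propylparaben (limma adjusted p = 0.0610). The mitosis markers given above lay below vehicle in the same tumors, and their part in the value of Cdk4 was not tested. Of 6 tested paralogs of the members 0 passed and 0 had an unadjusted p under 0.05 (limma), among them Ccnd2 (0.36), Cited2 (0.15), Cited4 (-0.01) and Greb1l (-0.32) with methylparaben. None of these lists had a call once the 7 libraries were left out, when limma called 0 of 14527 genes.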

How the data were processed

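RNA was sequenced from 59 tumors. Per the submitters' processing notes, bcl2fastq 2.20.0.422, STAR 2.6.1d, HTSeq 0.10.0 and GRCm38 were used; the counting strand and how introns were defined is not given in the sources used here. Tables deposited by the authors hold a normalized signal for genes and for introns, and 100 % of gene values were whole multiples (within 1e-06 reads) of a factor per library, so reads were recovered. Values equal CPM divided by a scaling factor, so levels are not per length. R 4.3.3 and limma 3.58.1, with a mean-variance trend, tested log2(value + 1) on features with a mean of at least 1, in 1 fit of all libraries. The recovered reads were tested with edgeR 4.0.16 (579, 32 and 21 genes called for methylparaben against vehicle, propylparaben against vehicle and between the esters) and DESeq2 1.42.0 (640, 231 and 0).

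The members and gene lists were chosen with earlier results of these data known. Named genes were the 6 members, Esr1 and Pgr, genes of each list that passed (otherwise up to 2 of smallest p in each direction of methylparaben against vehicle), and the 5 most alike genes per member, predicted genes skipped. GENCODE M21 gave positions. The neighbors of each member were looked up after the most alike genes had been seen. Alternatives changed the pseudocount, filter, scaling, covariates, test and libraries. The limma fit was tested on simulated counts, drawn for each gene without a component shared between genes. The search for alike genes was tested on a planted copy of Cited1 with noise. The permutation tests and the count tests were not tested in this way. No library was dropped or imputed, except where said. Correlations used numpy 2.4.6, with ranks from scipy 1.17.1.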

Additional observations from a re-analysis of the deposited data

How the results depend on the processing

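Counts of members called stayed at 0 in most settings. For methylparaben against vehicle DESeq2 called 1 member and 4.42 % of all genes. Leaving out 1 library gave 0 to 3 members there, and 0 to 1 for propylparaben against vehicle. Calls over all genes moved with the fit too. For methylparaben against vehicle limma called 191 genes in the main fit, 334 with a mean of at least 10 and 2 with only the 2 groups compared. The share of all genes called with 1 library left out is not given here, so these counts cannot be called particular to the members. No paired analysis was possible because tumors of different groups share no replicate, animal or batch in the labels. Relations with Esr1 and Pgr numbered 6, and 2 within methylparaben. Pairs of members numbered 1, but 2 by rho, 3 pooled, 2 within vehicle and 0 within methylparaben. Relations with marker scores numbered 21, but 13 with a pseudocount of 10, 7 without the 7 libraries, 11 without the 2 farthest, and 0 within methylparaben or within propylparaben. The spread passed for 1 member, and for 0 with a pseudocount of 10 or without the 7 libraries.

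Some member differences changed sign, none of them past the threshold in the fit of all libraries. For Greb1 with methylparaben the value was -0.0284 with the mitosis score, -0.0858 without the 7 libraries and -0.0408 to 0.15 with 1 library left out. Between the esters Stc2 was 0.0559 with the mitosis score, 0.0481 without the 7 libraries, 0.00843 by edgeR, 0.0134 by DESeq2 and -0.14 to 0.0481 with 1 library left out. Nrip1 was 0.0354 without low scaling factors. Ccnd1 was -0.0145 with tissue scores, -0.0217 with the mitosis score, -0.00603 without the 7 libraries, -0.047 without low scaling factors, -0.0274 by edgeR, -0.0243 by DESeq2 and -0.0267 to 0.0431 with 1 library left out. Introns with 1 library left out gave -0.17 to 0.0826 for Tnfsf11 and -0.0384 to 0.0444 for Nrip1. Gene minus intron with a pseudocount of 10 was -0.00391 for Nrip1 (methylparaben) and -0.0118 for Greb1 (propylparaben). Relations that passed and changed sign were, without the 7 libraries, Cited1 (-0.0416) and Stc2 (-0.0353) with macrophage. Within methylparaben they were Greb1 with basal (-0.0791), Cited1 with fibroblast (-0.0717) and macrophage (-0.168), and Stc2 with adipocyte (-0.277), fibroblast (-0.389) and macrophage (-0.172), and within propylparaben Nrip1 with muscle (-0.103). The cause was not tested. Depth limits Tnfsf11, with 36 reads, and the introns of Stc2, Cited1 and Ccnd1.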
